A study of Mus musculus with 22 samples.

Results

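Snora36b is a mouse H/ACA small nucleolar RNA (snoRNA) and a guide of 18S ribosomal RNA. It is 1 of 72 features on a custom nCounter code set, an assay in which colour barcodes bound to single RNA molecules are counted with no amplification step. It was found by matching the transcript ID of its row, without version and offset, to the mouse symbol in the RefSeq table. It was chosen by its normalized counts in earlier results of these data, which were highest in RAW264.7 macrophages, low in embryonic stem cells (ESCs) at day 0 and different between both ESC sets of a retinoic acid experiment. Those 3 features of its pattern are therefore described here and not tested.

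The 22 samples of total RNA form 7 groups. Spermatogonial stem cells (SSCs, n = 4) are the germline stem cells of the testis, NIH3T3 (n = 3) is a fibroblast line and RAW264.7 (n = 3) a macrophage line. ESCs of a line labelled aMHC-puro were taken at day 0 (n = 3), and cardiomyocytes selected with puromycin at day 16 of their differentiation through embryoid bodies (n = 3). The remaining 6 samples are ESCs of the retinoic acid experiment, and their labels contradict each other. Set A (n = 3) carries retinoic acid in its title and treatment field but is described as untreated at T = 0, and set B (n = 3) is titled as plain ESCs but described as given retinoic acid at T = 6. The sets are compared by name, with no direction of treatment. No gene that marks a cell type is in the table, so the labelled identities could not be checked. Whether replicates came from separate cultures or animals is not in the labels; p-values here measure only the spread between samples, and that spread may be technical. The descriptions of SSC replicates 2, 3 and 4 share a number that replicate 1 does not have.

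H/ACA snoRNAs fold into hairpins, end in a short ACA box and work in a particle with the enzyme dyskerin. Unpaired stretches inside the hairpins base-pair with a target RNA and place a chosen uridine for conversion to pseudouridine. Guides of 18S rRNA direct this modification in the RNA of the small ribosomal subunit. Most vertebrate H/ACA snoRNAs are cut out of introns of host genes. Some snoRNA loci overlap microRNA genes, and the human gene of miR-664 overlaps SNORA36B in the same way.

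In the RefSeq table of assembly GRCm38.p6, Snora36b lies on chromosome 1 within Rab3gap2, which encodes the non-catalytic subunit of a GTPase-activating protein for Rab3. The table does not say whether the position is intronic. No other measured feature lies in Rab3gap2, and the table lists no other Snora36 symbol. The hairpin of microRNA gene Mir664 overlaps Snora36b and shares 64 of its 113 bases. Only 2 of the 34 features with a symbol are overlapped by a microRNA hairpin, the other being Snora34. The strand of Snora36b was not given, and that of the Mir664 hairpin was taken for it. The shared stretch, from the RefSeq hairpin at chr1:185242975-185243038 (GRCm38.p6, plus strand), is shown because it holds the 3′ end of the snoRNA, with the ACA letters of the box position in capitals and the mature microRNAs with their seeds (bases 2 to 8) in capitals.
Snora36b, last 64 bases: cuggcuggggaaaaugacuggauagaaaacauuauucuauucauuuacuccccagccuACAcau
mmu-miR-664-5p: cUGGCUGGggaaaaugacugg
mmu-miR-664-3p: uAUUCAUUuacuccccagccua
The capital ACA is followed by 3 bases up to the annotated end of Snora36b, the spacing that defines this class of snoRNA. The letters ACA occur 3 times in the 64 bases. The 5p microRNA covers bases 1 to 21 of the stretch and the 3p microRNA bases 38 to 59, so both lie wholly within the snoRNA. RNAfold predicted 21 base pairs for the stretch at −28.1 kcal/mol, 15 of them between both microRNA arms. The code set holds probes for snoRNAs, and the level of miR-664 was not measured in these files. The feature ID carries an offset of 10, which the sources used here do not explain.

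Values are the authors' normalized signal, called normalized counts. Sums per sample ran from 1045169 to 1668320 over all features. In every sample 100% of values were whole multiples of 1 step (tolerance 0.02), so the values were read as whole counts times 1 factor per sample. Snora36b then had 222 to 2079 whole counts per sample. On this reading counting error is 2.47% to 6.20% of the mean in a group of samples. The table has 2 parts: 5 features have no value in SSC, NIH3T3 and RAW264.7 (10 samples) and are filled in the other 12. The sources used here do not give whether both parts were run or normalized together. Ratios across the parts rest on the authors' scaling.

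Snora36b ranged from 232.63 to 2035.28 normalized counts over the 22 samples, an 8.75-fold range. RAW264.7 had the highest level, with 2035.28, 1473.93 and 1430.37 normalized counts in replicates 1 to 3 and a mean of 1647 ± 337 (SD). Replicate 1 stood above the other 2, and the lowest RAW264.7 sample exceeded every sample of every other group. Set B had 1256.51, 946.07 and 771.19 in replicates 1, 3 and 4, a mean of 991 ± 246. SSCs had 909.76, 706.42, 841.2 and 738.5 in replicates 1 to 4, a mean of 799 ± 93.6. The samples of set B and SSC overlapped, and together with RAW264.7 they lay above all 12 samples of the other 4 groups.

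The 4 low groups lay close together. Cardiomyocytes at day 16 had 285.91, 547.67 and 328.08 normalized counts in replicates 1, 2 and 4, a mean of 387 ± 141, and replicate 2 was the highest sample of the low groups. NIH3T3 had 282.02, 298.39 and 322.57, a mean of 301 ± 20.4. ESCs at day 0 had 232.63, 346.92 and 301.88 in replicates 1, 2 and 4, a mean of 294 ± 57.6. Set A had 234.24, 283.08 and 312.03 in replicates 1, 3 and 4, a mean of 276 ± 39.3. In normalized counts all 4 of these groups overlapped with each other, and the means of NIH3T3, day 0 ESCs and set A differed by less than the SD of day 0 ESCs (57.6).

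**Figure D1:**
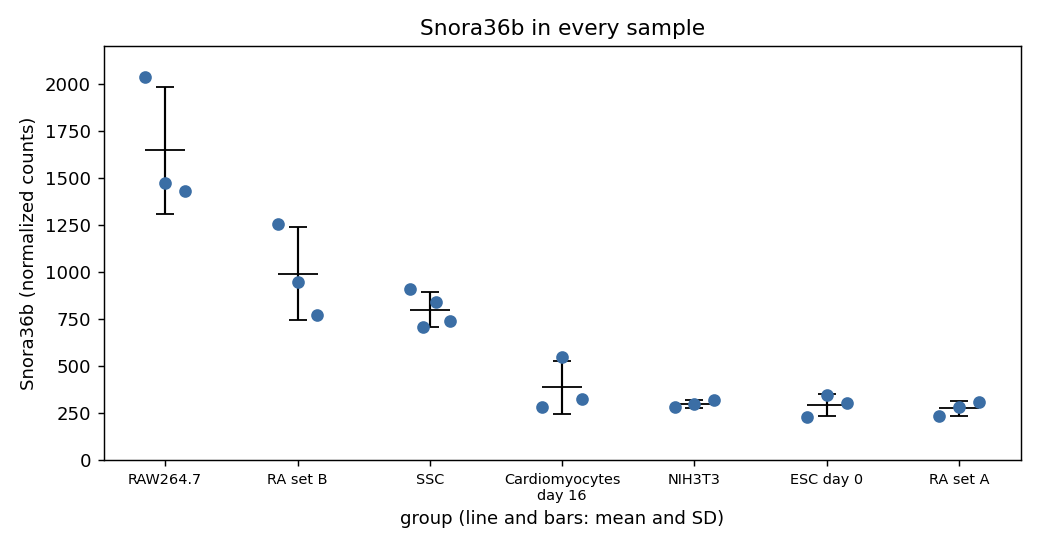
Snora36b in normalized counts (vertical axis, linear from 0) for each of the 22 samples, by group in order of the mean; points are samples, and lines and bars are the mean and SD. RAW264.7 lies above 1430, set B and SSC between 706.42 and 1256.51, and the other 4 groups below 548.

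Of the 21 pairs of groups, 14 did not overlap. These include the pairs with RAW264.7 and set B against set A, for which the gene was chosen. The count was not taken for the other features, so nothing is read from it. Between neighbours in the order of means, RAW264.7 over set B was 1.67-fold and set B over SSC 1.22-fold with overlapping samples. SSC over cardiomyocytes was 2.14-fold without overlap. Below that, cardiomyocytes over NIH3T3 was 1.24-fold, NIH3T3 over day 0 ESCs 1.04-fold and day 0 ESCs over set A 1.06-fold, all with overlap. Folds between group means are taken on the log2(value + 1) scale. The widest, RAW264.7 over set A, was 5.90-fold, a range built on levels for which the gene was chosen.

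High and low groups occurred in both parts of the table. In the part with blanks RAW264.7 was 5.39-fold above NIH3T3 and 2.04-fold above SSC. In the part without blanks set B was 3.53-fold above set A, 3.34-fold above day 0 ESCs and 2.61-fold above cardiomyocytes. Set A and day 0 ESCs, both labelled ESCs in the same part of the table but from different experiments, differed by 0.08 on the log2 scale, less than the SD of either (0.21 and 0.29).

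Part of the spread within groups moved with the level of the whole sample. Set B had an SD of 0.35 on the log2 scale, but when each sample was set against its own mean log2 value over 67 features, Snora36b stood at −3.30, −3.32 and −3.34 in replicates 1, 3 and 4. Its SD there was 0.02, the lowest of the 67 features, whose median SD in set B went from 0.22 to 0.40 with this centring. That SD is smaller than counting alone gives in set B on this reading (3.30% of the mean), so nothing is read from how close the 3 values lie. In cardiomyocytes and day 0 ESCs the SD of Snora36b was larger after centring, in day 0 ESCs from 0.29 to 0.35. Relative to the sample mean the cardiomyocyte values were −4.84, −3.50 and −4.41, with an SD of 0.69 against 0.49 before, and replicate 2 lay among the SSC samples (−3.79 to −3.48). That sample also had the lowest sum of all cardiomyocyte samples and the lowest total of whole counts, read this way, in the series (932203). In NIH3T3 the coefficient of variation of Snora36b was 6.78%, near the 5.78% that counting alone gives on this reading.

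As a share of the summed signal, Snora36b made up 1133 ± 250 per 1000000 (ppm) in RAW264.7, 666 ± 85.4 in set B and 663 ± 58.3 in SSC. It was 326 ± 138 ppm in cardiomyocytes, 219 ± 6.03 in NIH3T3, 197 ± 28.1 in set A and 188 ± 39.8 in day 0 ESCs. On this scale set B and SSC had nearly the same mean, and 14 of 21 pairs of groups did not overlap. RAW264.7 remained above all other samples, with 961 to 1421 ppm against at most 753 in set B. Relative to the sample mean log2 value, 16 pairs did not overlap. Neither count was taken for the other features, and both include pairs for which the gene was chosen, so nothing is read from them. On that scale set B lay apart from SSC, while SSC and cardiomyocytes overlapped. Day 0 ESCs did not overlap with NIH3T3 or cardiomyocytes, but the closest samples were at −4.86 against −4.84 in each case, a gap smaller than counting error.

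**Figure D2:**
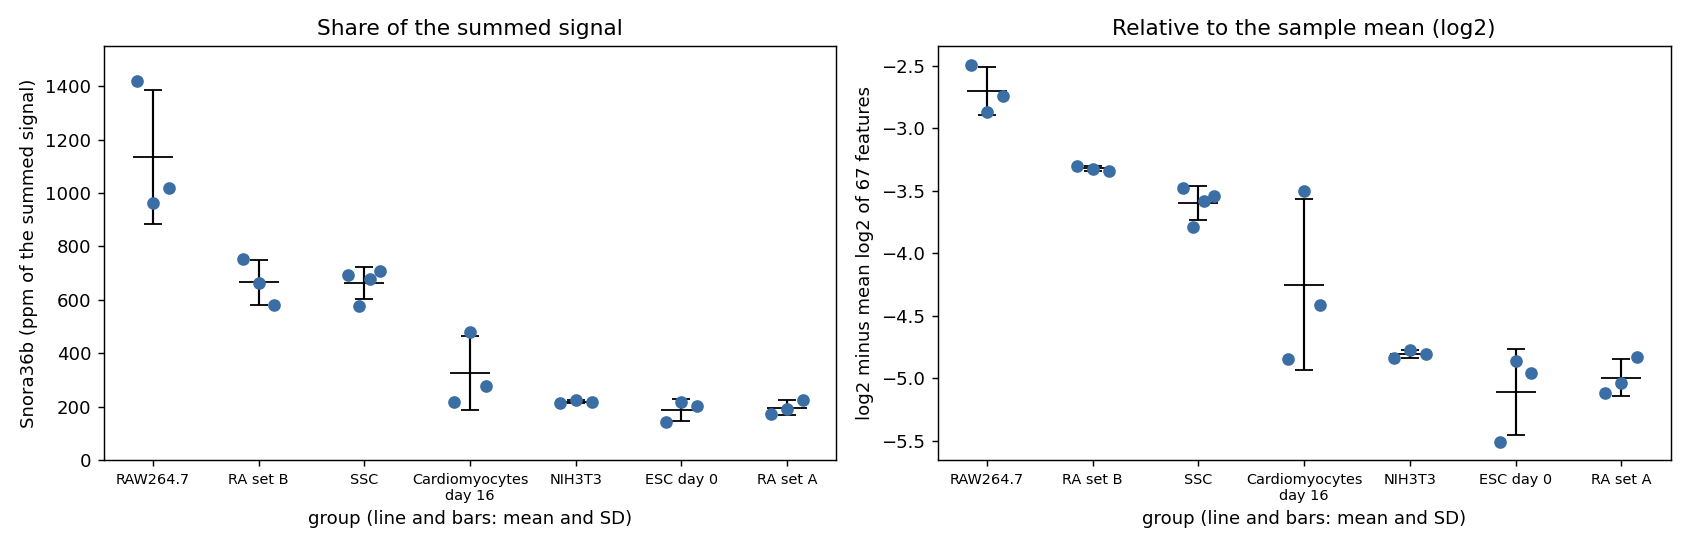
Snora36b in ppm of the summed signal (left, linear from 0) and as log2(value + 1) minus the mean log2 value of 67 features in the same sample (right), by group; points are samples, and lines and bars are the mean and SD. On the right the 3 set B samples nearly coincide, and cardiomyocyte replicate 2 (−3.50) lies at the level of the SSC samples.

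SSC against NIH3T3 is a comparison of germ cells with fibroblasts neither of which is named among the reasons for choosing Snora36b, and both groups lie in the same part of the table. Snora36b was higher in all 4 SSC samples (706.42 to 909.76 normalized counts) than in all 3 NIH3T3 samples (282.02 to 322.57). The difference was 2.64-fold (log2 difference 1.40 ± 0.16 SE, 95% interval 1.05 to 1.75, limma adjusted p 2.7e-06), where the median over the 67 features was 0.19. A call was common here: 50 of 67 features passed at an adjusted p under 0.05 (74.6%), 28 higher in SSC and 22 lower. By size, Snora36b ranked 7 among the features higher in SSC and 10 in either direction. With SSC replicates 2, 3 and 4 averaged to 1 sample the log2 difference was 1.47 (limma adjusted p 9.6e-05).

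Cardiomyocytes at day 16, selected with puromycin, are compared here with ESCs at day 0, the start of the differentiation. The low day 0 level was among the reasons for choosing Snora36b, which leans this difference towards a higher value at day 16, so it is described without a test. Snora36b had 285.91 to 547.67 normalized counts at day 16 and 232.63 to 346.92 at day 0, with overlapping samples. The log2 difference was 0.36 ± 0.30 SE, while the median over the 72 features was −0.51. The value depended on cardiomyocyte replicate 2: without it the log2 difference was 0.08, and without cardiomyocyte replicate 1 or day 0 replicate 1 it was 0.55 and 0.20. Against the sample median or mean log2 value it was 1.17 and 0.85, and on the mean-centred scale the samples no longer overlapped, by −4.84 against −4.86 at the closest. Without cardiomyocyte replicate 2 these differences were 0.75 and 0.47.

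Of a list of 22 guides of 18S rRNA, 6 were measured: Snora36b, Snora15 (host Cct6a, a chaperonin subunit gene), Snora24 (Snhg8), Snora28 (Eif5, a translation initiation factor gene), Snora44 (Snhg12) and Snora70 (Rpl10, a ribosomal protein gene). The list may leave out other measured guides of 18S rRNA, so counts and medians of guides hold for its members only. Across the 7 groups Snora36b ranged 5.90-fold and the other 5 ranged 2.12 to 3.16-fold; Snora36b was chosen partly for its high RAW264.7 level and its difference between the sets, which favours a wide range, so nothing is read from this. Snora70 was also highest in RAW264.7, with 46984 ± 2575 normalized counts, but lowest in SSC, with 22348 ± 3335. Snora28 was highest in set B (69212 ± 9551) and lowest in SSC (29332 ± 3752). Snora15 was highest in SSC, Snora24 in NIH3T3 and Snora44 in day 0 ESCs, and all 3 were lowest in cardiomyocytes. Levels of different probes are not compared, since probes differ in efficiency.

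In SSC against NIH3T3, 1 of the other 5 guides was higher and 3 were lower, beside 28 higher and 22 lower of all 67 features. Snora15 was 1.94-fold higher in SSC (log2 difference 0.95 ± 0.11 SE, limma adjusted p 3.3e-06), the same direction as Snora36b. Snora24, with 39375 ± 4472 normalized counts in SSC and 111436 ± 9354 in NIH3T3, was 2.84-fold lower (−1.50 ± 0.16, adjusted p 1.0e-06). Snora28 and Snora70 were 1.64-fold and 1.45-fold lower without overlap. Snora44 had a log2 difference of −0.38 ± 0.18 and did not pass (adjusted p 0.068), but passed after median or mean centring (adjusted p 0.027 and 0.0030), without day 0 ESCs (0.040) or without SSC replicate 1 (0.014). The median of the 5 was −0.53 against 0.19 over all features.

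At day 16 against day 0, 3 of the other 5 guides were lower and 0 higher in limma, beside 21 lower and 1 higher of all 72 features (30.6% called). Snora15, Snora24 and Snora44 fell 2.44-fold, 2.28-fold and 2.29-fold (limma adjusted p 0.026 each). Snora28 and Snora70 had log2 differences of 0.23 ± 0.29 and −0.19 ± 0.18 and did not pass (adjusted p 0.55 and 0.46). Without cardiomyocyte replicate 4 or any day 0 replicate the 3 calls were lost (adjusted p 0.057 to 0.11), with log2 differences still between −1.41 and −0.99. Under median centring, mean centring, quantile normalization and shares of the summed signal they were lost with smaller differences, from −0.91 to −0.37 (adjusted p 0.056 to 0.47). Without cardiomyocyte replicate 2 Snora44 was lost (−1.08, adjusted p 0.056). The median of the 5 was −1.19 against −0.51 over all features.

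**Figure D3:**
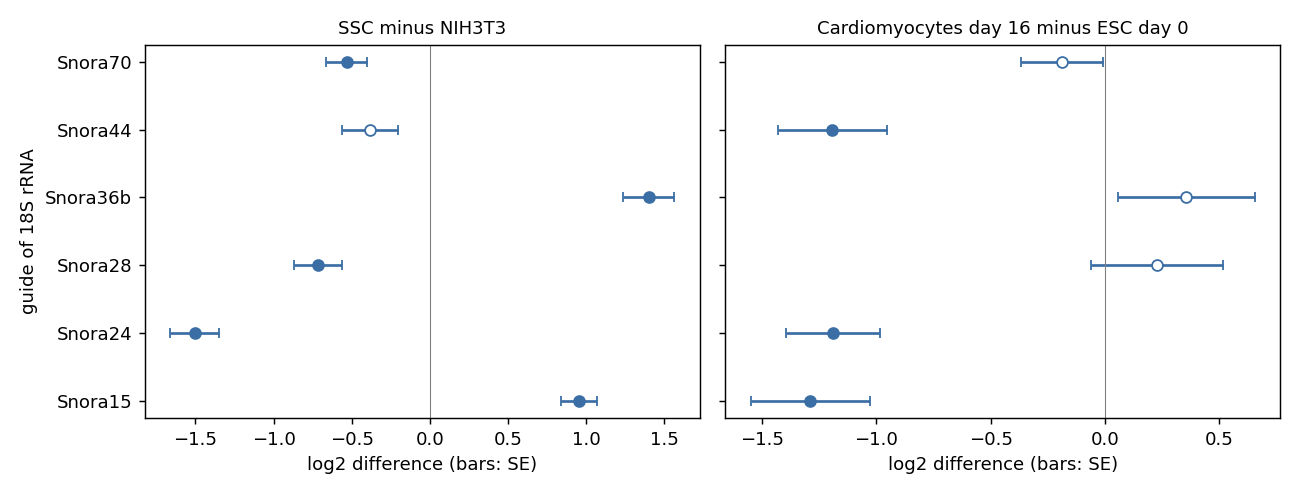
Log2 difference of the 6 listed and measured guides of 18S rRNA in SSC minus NIH3T3 (left) and cardiomyocytes at day 16 minus ESCs at day 0 (right), with SE as bars. Filled points had an adjusted p under 0.05 and open points did not. Snora36b is at 1.40 on the left and at 0.36 on the right, where it is shown as a description.

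**Figure D4:**
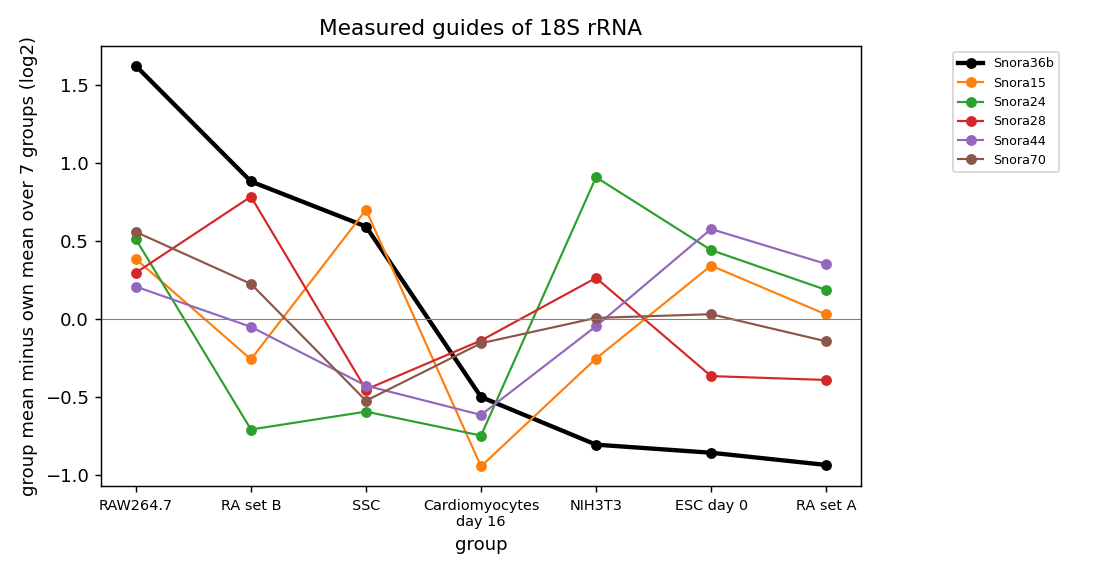
Group means of the 6 listed and measured guides of 18S rRNA on the log2(value + 1) scale (vertical axis), each minus its own mean over the 7 groups (horizontal axis, in the order of Snora36b). Snora36b (black) falls from RAW264.7 to set A, and none of the other 5 lines follows it across all groups.

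Features with a pattern like that of Snora36b were ranked by Pearson's r of log2(value + 1) over the 22 samples, which share scaling and group structure, so r is given as a description. Among 66 other features the median r was 0.28, 15 were above 0.5 and 0 above 0.8. Snora5c, hosted in Tbrg4, had the highest r (0.78). It was highest in RAW264.7 (24448 ± 2182 normalized counts) and next in SSC (23657 ± 2385), but lowest in cardiomyocytes (9836 ± 1825), where Snora36b was above 3 other groups. The next 3 are listed by transcript ID with no symbol, with r of 0.73 each. Snora30, which lies in Srcap and guides 28S rRNA, had r = 0.70, with its highest level in SSC (13914 ± 2635) and its lowest in set A (3366 ± 12.4). All 5 were above their own mean over the 7 groups in RAW264.7, set B and SSC, and all but Snora5c had their highest level in SSC.

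Likeness depended on the measure and on which groups entered. By Spearman's rho Snora5c ranked 5 and over the 7 group means 2, and features without a symbol led (0.77 and 0.85). Without RAW264.7 another feature without a symbol led with r = 0.92; Snora5c then ranked 10 with r = 0.68 and Snora30 ranked 2 with r = 0.88. Without both retinoic acid sets Snora5c ranked 1 with r = 0.79 and Snora30 ranked 10 with r = 0.59. Snora47, hosted in Zbed3, had r = 0.44 over the 22 samples and ranked 21. The most opposite patterns were those of Snora26 (r = −0.59), hosted in the non-coding gene Dancr, and of Snora74a (r = −0.57) and Snora73a (r = −0.53), which act in processing of the rRNA precursor. Snora26 and Snora73a were lowest in SSC and Snora74a was lowest in RAW264.7. Over all 22 samples these 3 were the only features of the 66 with r below −0.5. Without RAW264.7 Snora26 was at −0.45, Snora74a at −0.32 and Snora73a at −0.54, and they were then not the 3 most opposite.

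**Figure D5:**
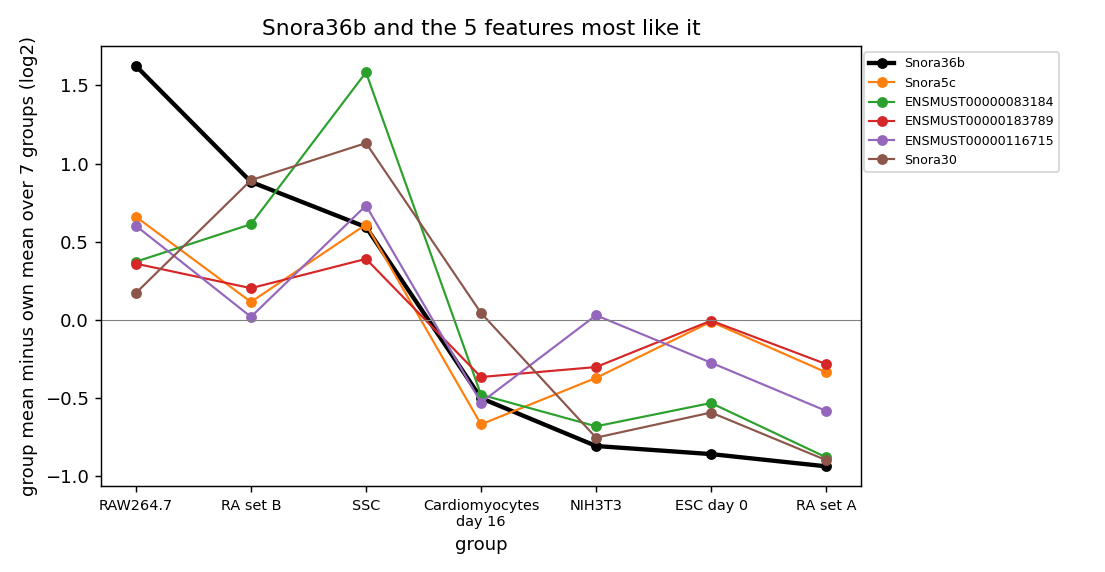
Group means on the log2(value + 1) scale (vertical axis) of Snora36b (black) and the 5 features with the highest r to it over 22 samples, each minus its own mean over the 7 groups (horizontal axis, in the order of Snora36b). All 6 are above 0 in RAW264.7, set B and SSC, and Snora36b has the highest point in RAW264.7.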

How the data were processed

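The authors deposited 1 table of 72 features by 22 samples, measured with a custom nCounter code set per the series design. Its values are a non-negative signal, and the sources used here do not say how the authors normalized it, with which software, or how they treated background. Per the labels' protocols, RNA was isolated with Trizol, DNase-treated and cleaned on columns. Symbols came from RefSeq accessions (34 matched, 38 features kept their IDs). Values were taken as log2(value + 1) and fitted by lmFit and eBayes (limma 3.58.1, R 4.3.3). Tests were two-sided, with a threshold of 0.05 on p adjusted by Benjamini-Hochberg over all features tested. SSC against NIH3T3 was fitted on 4 cell types (SSC, NIH3T3, RAW264.7 and day 0 ESCs, 13 samples, 67 features without blanks) and day 16 against day 0 on 6 samples and 72 features; no p is given there for Snora36b, since its day 0 level was used to choose it. The fits were tested on simulated data. Structure was predicted with RNAfold 2.7.2. Besides Snora36b, the text names the measured members of a list of 18S guides and the 5 features with the highest and 3 with the lowest r. Snora47 and Snora34 were added after their values or positions were seen. Members and lists were chosen with earlier results of these data known.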

Additional observations from a re-analysis of the deposited data

How the results depend on the processing

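In SSC against NIH3T3 Snora36b passed in limma under all 24 alternatives (adjusted p 2.9e-16 to 0.000295). Those that change only other groups cannot move its log2 difference (1.40). The others gave 0.83 (quantile normalization) to 1.59 (share of the summed signal), and 1.34 to 1.46 without 1 SSC or NIH3T3 replicate. Between 43 and 54 features were then called. Day 16 minus day 0 gave log2 differences of 0.08 to 1.17 for Snora36b under 16 alternatives (0.08 to 0.55 with 1 replicate left out). The count of called features there moved from 22: 6 after median centring (5 higher, 1 lower), 3 after quantile normalization (3 higher, 0 lower), and limma called 0 after mean centring (22 at an unadjusted p under 0.05) and 0 on shares of the summed signal (23 unadjusted). It was 38 with all 7 groups in the fit and 0 to 34 with 1 replicate left out (21 to 39 unadjusted; 0 without cardiomyocyte replicate 4 or any day 0 replicate). With the replicate block 8 passed there and Snora36b stayed at 0.36. In SSC against NIH3T3 the block gave 52 calls and 1.41 for Snora36b. Same-numbered samples share only a number: r of their deviations from the group means was −0.24, −0.27 and 0.14 for day 16 with day 0, and 0.60, −0.015 and 0.30 for SSC with NIH3T3. Between samples with different numbers r ran from −0.223 to 0.392 for day 16 with day 0, and from −0.725 to 0.664 for SSC with NIH3T3. Chosen after seeing the data, median and mean centring without cardiomyocyte replicate 2 gave 1 and 0 calls in limma (13 and 18 unadjusted). Snora70, which did not pass at day 16, turned to 0.63, 0.31, 0.16 and 0.19 after median centring, mean centring, quantile normalization and as a share, and to 0.45 and 0.17 after median and mean centring without cardiomyocyte replicate 2, and Snora28 ran from −0.0066 (without that replicate) to 0.42 (without replicate 1). Relative to 2.04, 4.36, 5.39 and 5.90-fold, RAW264.7 was 1.69-fold above SSC as a share of the signal, and 2.93, 4.31 and 4.91-fold above cardiomyocytes, NIH3T3 and set A at the same mean log2 value. The cause of these changes was not tested. The planned count tests were not run, because the factor behind the values is not stated and 72 features hold fewer low values than the check of recovered counts needs. The features-at-50 filter removed none of the 67 features in the SSC comparison. The number of samples and, in groups with low counts, counting limit the precision.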
